A study of Mus musculus with 4 samples.

Results

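The Hox genes, the homeobox transcription factors of the Hoxa, Hoxb, Hoxc and Hoxd clusters, were followed in adult mouse mesoangioblasts (AdmMABs) in which PW1 had been silenced. A member was any gene with a probe set whose single annotated symbol was Hoxa, Hoxb, Hoxc or Hoxd and a number. This gave 37 Hox genes, out of 19938 genes with a probe set of a single symbol, with 10 genes in Hoxa and 9 each in Hoxb, Hoxc and Hoxd. Each member had 1 probe set. Hoxb8 was not a member, since the only row that named it also named Hoxb7.

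AdmMABs are progenitors associated with blood vessels, with the ability to form muscle fibres. The cells were a polyclonal population from the tibialis anterior, a muscle of the lower hindlimb, of adult male C57/BL6 mice. shPW1 AdmMABs carried a lentiviral short hairpin RNA against PW1 (gene symbol Peg3), a zinc finger factor of stem and progenitor cells. Ctl AdmMABs carried a lentiviral scrambled short hairpin RNA with no mouse target. Both populations were collected while proliferating in medium with serum, and 2 RNA extractions of shPW1 and 2 of Ctl were each hybridized to 1 Affymetrix Mouse Gene ST array. A single hairpin against PW1 was used, and which vector carried the control hairpin of the arrays was not stated, so the hairpin, the vector and the loss of PW1 cannot be told apart. Both extractions of a group came from the same transduced cells, so the spread behind each p-value is that between extractions and may be technical.

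Hox genes are arranged along each cluster in the order in which they act along the body axis. Low paralog numbers are used in the hindbrain and neck, central ones in the trunk, and high ones in the lumbar, sacral and tail regions and in the limbs. Adult mesenchymal and muscle progenitors keep a Hox pattern that reflects where in the body they came from, which is what is meant by positional identity.

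Values are log2 expression values, so a difference of 1 is a doubling, and changes are given as shPW1 minus Ctl. Peg3 had 6.22 and 6.47 in shPW1, against 8.67 and 8.70 in Ctl, and its log2 fold change was -2.34 (SE 0.10, limma adjusted p = 0.0043). Both shPW1 arrays were far below both Ctl arrays. The median over all rows was 5.44 and 5.40 in the shPW1 arrays and 5.47 and 5.49 in the Ctl arrays. All 21789 probe sets with 1 symbol were tested together in limma, and "called" means an adjusted p under 0.05. The labelled cell type was checked on 12 pericyte and mesoangioblast markers, of which 9 in Ctl lay above the 99th percentile of background defined next and 10 above the 95th. Pdgfrb had 10.36 and 10.33 in shPW1 and 10.81 and 10.78 in Ctl, and was called lower (log2 fold change -0.45, limma adjusted p = 0.0225). Alpl (alkaline phosphatase) had 5.79 and 5.73 in shPW1 and 5.75 and 5.95 in Ctl, close to that background. Abcc9 had 4.99 and 4.99 in shPW1 and 4.90 and 4.90 in Ctl, and Rgs5 had 3.79 and 3.79 in shPW1 and 3.70 and 3.70 in Ctl. These last 2 markers were the ones at or below the 95th percentile in Ctl. Of 12 satellite cell and myoblast markers, 11 in Ctl lay above the 99th percentile and 12 above the 95th. The check thus does not tell a pericyte identity from a myoblast one.

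The first question was which Hox genes could be seen at all in these cells. Arrays give no detection call here, so 1218 probe sets of olfactory and vomeronasal receptor genes served as a gauge of non-specific signal. Their 95th percentile was 4.85 in shPW1 and 4.90 in Ctl, and their 99th percentile was 5.60 in shPW1 and 5.69 in Ctl. Of the 37 Hox genes, 31 in shPW1 and 32 in Ctl lay above the 95th percentile, and 18 in each group lay above the 99th percentile. Those 18 were the same genes in shPW1 and Ctl. Of all probe sets tested, 68.7% in shPW1 and 68.6% in Ctl were above the 95th percentile, and 55.3% in shPW1 and 55.1% in Ctl were above the 99th. Probe sets differ in their response, so a level here says whether signal was above this gauge and does not rank 1 gene against another.

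By cluster, the genes above the 99th percentile were 7 of 10 in Hoxa (Hoxa4, Hoxa5, Hoxa6, Hoxa7, Hoxa9, Hoxa10 and Hoxa11) and 6 of 9 in Hoxc (Hoxc4, Hoxc6, Hoxc9, Hoxc10, Hoxc11 and Hoxc13). They were 3 of 9 in Hoxb (Hoxb1, Hoxb3 and Hoxb9) and 2 of 9 in Hoxd (Hoxd9 and Hoxd11). By paralog group, they were 4 of 11 anterior genes (groups 1 to 4), 4 of 10 central genes (groups 5 to 8) and 10 of 16 posterior genes (groups 9 to 13). All 4 genes of group 9 and all 3 of group 11 were among them, as were 2 of 3 in group 10. Groups 2, 8 and 12 had none. Just below the limit lay Hoxc5, with a mean of 5.49 in shPW1 and 5.69 in Ctl, and just above it lay Hoxd11, with 5.66 in shPW1 and 5.79 in Ctl. In Hoxa and in Hoxc, every member of groups 9 to 11 was above it.

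At the other end, Hoxa2, Hoxd3, Hoxd8 and Hoxd13 were at or below the 95th percentile in both groups. Hoxa3 and Hoxb4 passed it in Ctl alone, and Hoxb13 in shPW1 alone. Hoxd8 had 3.31 and 3.40 in shPW1 and 3.34 and 3.27 in Ctl. Signal of these genes cannot be told from non-specific signal by this gauge, and their changes are read with that limit.

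**Figure D1:**
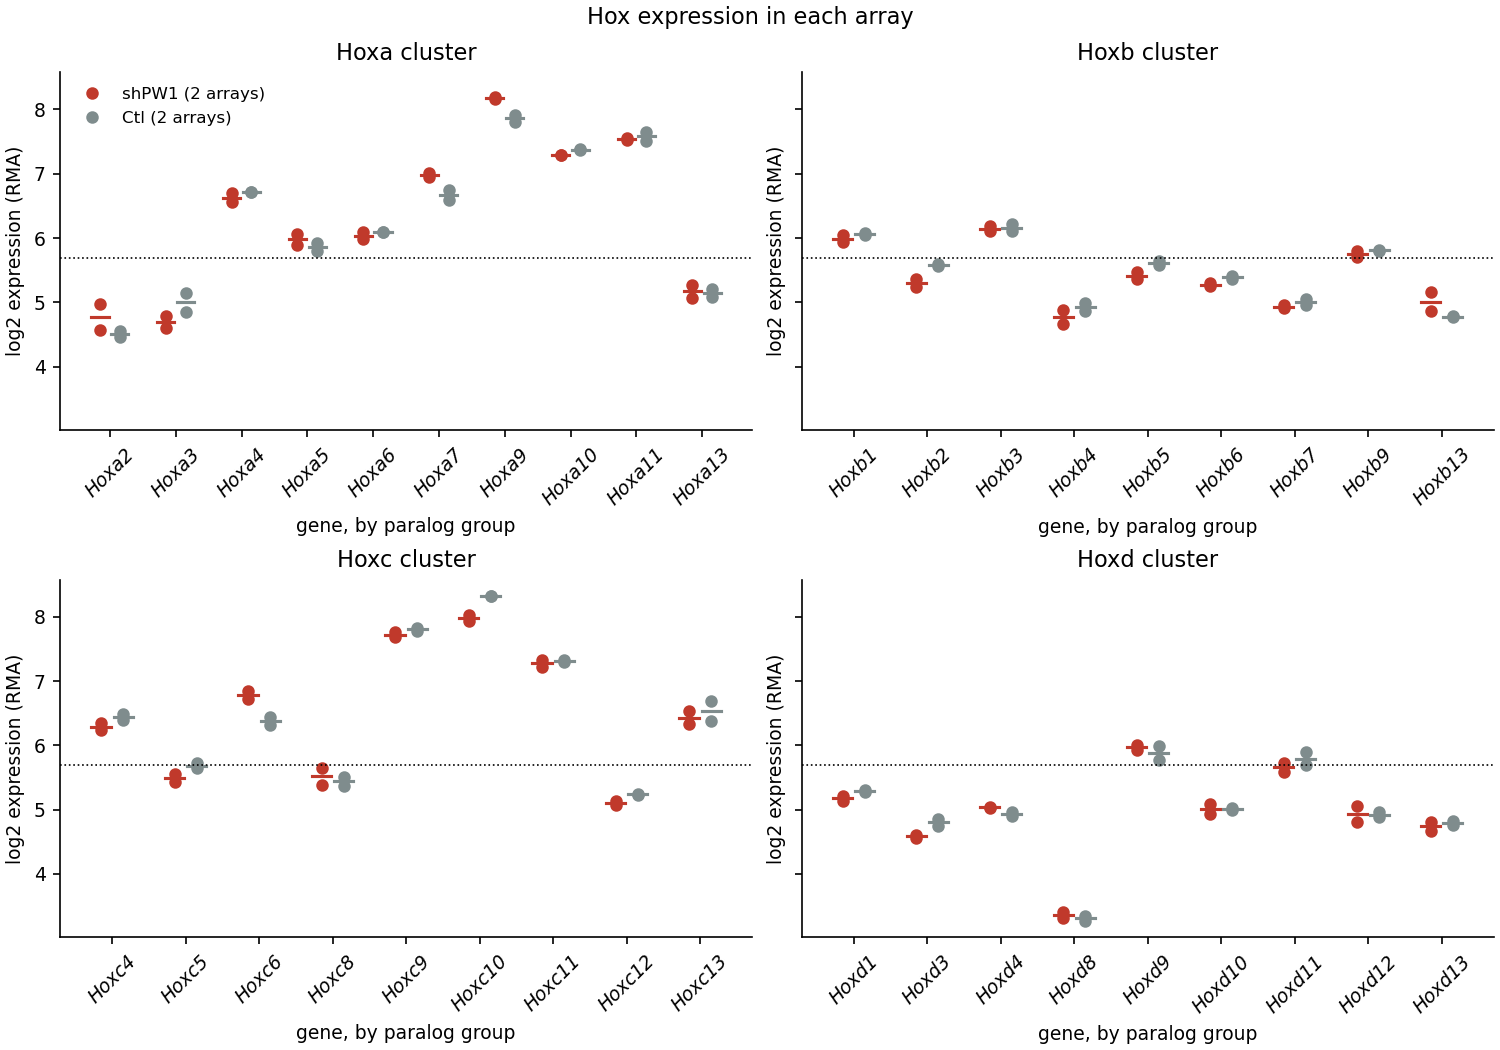
Log2 expression of each of the 37 Hox genes in each array (vertical axis, log2 RMA values), by cluster and in paralog order (horizontal axis). Red points are the 2 shPW1 arrays and grey points the 2 Ctl arrays, short bars are group means, and the dotted line is the 99th percentile of receptor probe sets in Ctl (5.69). The points of the groups do not overlap for 6 genes with shPW1 higher (16.2%, against 27.5% of all probe sets tested). The same holds for 15 genes with shPW1 lower (40.5%, against 28%). After a second quantile normalization the share lower is 27%, against 27.6%. After array medians are subtracted, it is 21.6%, against 18.7%. The widest gaps between means are at Hoxc6, Hoxc10, Hoxa9 and Hoxa7.

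The second question was whether silencing PW1 changed this pattern. Of the 37 Hox genes, 1 was called higher in shPW1 (Hoxc6), 1 was called lower (Hoxc10) and 35 were not called. That is 5.41% of the members called, against 9.1% of all 21789 probe sets tested. By direction it is 2.7% higher and 2.7% lower, against 4.93% and 4.17% of all probe sets. The log2 fold changes of the Hox genes ran from -0.34 to 0.40, and none exceeded 0.5 in size (1.41-fold), while 4.4% of all probe sets tested did. The median absolute log2 fold change was close, at 0.107 for the Hox genes and 0.118 for all probe sets tested. The 95% confidence interval stayed within 1 log2 unit of no change for all 37 genes and within 0.5 for 31 of them, and its farthest bound for any member was 0.64. For comparison, the interval stayed within 1 for 21422 and within 0.5 for 17371 of the 21789 probe sets tested. The 18 genes above the 99th percentile held both calls and had a median change of -0.06. A doubling or a halving of the probe set signal lies outside the interval of every member. In bulk RNA, fewer cells with a transcript and less of it per cell cannot be told apart.

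Hoxc6 (probe set 10427293), a gene of the thoracic trunk and the forelimb, had 6.84 and 6.72 in shPW1, against 6.31 and 6.44 in Ctl. Both shPW1 arrays were above both Ctl arrays. Its log2 fold change was 0.40 (SE 0.08, 95% confidence interval 0.20 to 0.61, limma adjusted p = 0.0497), 1.32-fold. Hoxc10 (probe set 10427280), a gene of the lumbar region and the hindlimb, had 8.03 and 7.94 in shPW1, against 8.33 and 8.32 in Ctl. Both shPW1 arrays were below both Ctl arrays. Its log2 fold change was -0.34 (SE 0.06, interval -0.50 to -0.17, limma adjusted p = 0.0449), 0.791-fold. Both adjusted p-values lay just under the threshold. Over the alternatives tried they ran from 0.00786 to 0.224 for Hoxc6 and from 0.00183 to 0.23 for Hoxc10, with no change of sign. Neither call was made once any 1 of the 4 arrays was left out, when limma called 0 of all probe sets, while 5 to 7 Hox genes (13.5% to 18.9%) had an unadjusted p under 0.05, against 17.4% to 24.7% of all probe sets.

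Hoxa9 and Hoxa7, neighbours in the Hoxa cluster, had the largest changes in size after Hoxc6 and Hoxc10 and were not called. Hoxa9, a posterior gene also used in blood progenitors, had 8.17 and 8.20 in shPW1, against 7.92 and 7.81 in Ctl. Its log2 fold change was 0.32 (SE 0.07, limma adjusted p = 0.0556). Hoxa7, a trunk gene, had 6.95 and 7.005 in shPW1, against 6.59 and 6.75 in Ctl. Its log2 fold change was 0.30 (SE 0.08, limma adjusted p = 0.0896). For both genes the shPW1 arrays were above the Ctl arrays. Hoxa10 and Hoxa6, on either side of this pair among the members, had log2 fold changes of -0.08 and -0.06. Both Hoxa9 and Hoxa7 were called higher where dim probe sets were left out, where array medians were subtracted and with a trended prior. These settings called 31.7%, 11% and 21.6% of all probe sets they tested, against 9.1% in the main fit. The methods' analysis of variance (p under 0.05 and a fold change over 1.2), which called 11.7% of all probe sets, called Hoxa9 and not Hoxa7. It also called Hoxb2 lower, as did the fit with dim probe sets left out. In the main fit Hoxb2 was nearer the threshold than Hoxa7 (limma adjusted p = 0.0795).

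Of the 4 other members with the largest differences, none was called in the main fit. Hoxb2, a hindbrain gene, had 5.37 and 5.24 in shPW1, against 5.57 and 5.60 in Ctl (log2 fold change -0.28, SE 0.07, limma adjusted p = 0.0795). Hoxa3, needed for the thymus and parathyroid, had 4.60 and 4.79 in shPW1, against 5.15 and 4.85 in Ctl (-0.30, SE 0.13, limma adjusted p = 0.213). In both genes the shPW1 arrays lay below the Ctl arrays. Hoxa2, the selector gene of the pharyngeal arch behind the jaw, had 4.97 and 4.57 in shPW1, against 4.55 and 4.46 in Ctl (0.26, SE 0.15, limma adjusted p = 0.327). Hoxb13, a gene of the tail and the prostate, had 5.15 and 4.86 in shPW1, against 4.79 and 4.77 in Ctl (0.23, SE 0.11, limma adjusted p = 0.265). The shPW1 arrays of these 2 genes lay above the Ctl arrays, with one extraction well above the other. All 4 genes were below the 99th percentile of receptor probe sets.

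**Figure D2:**
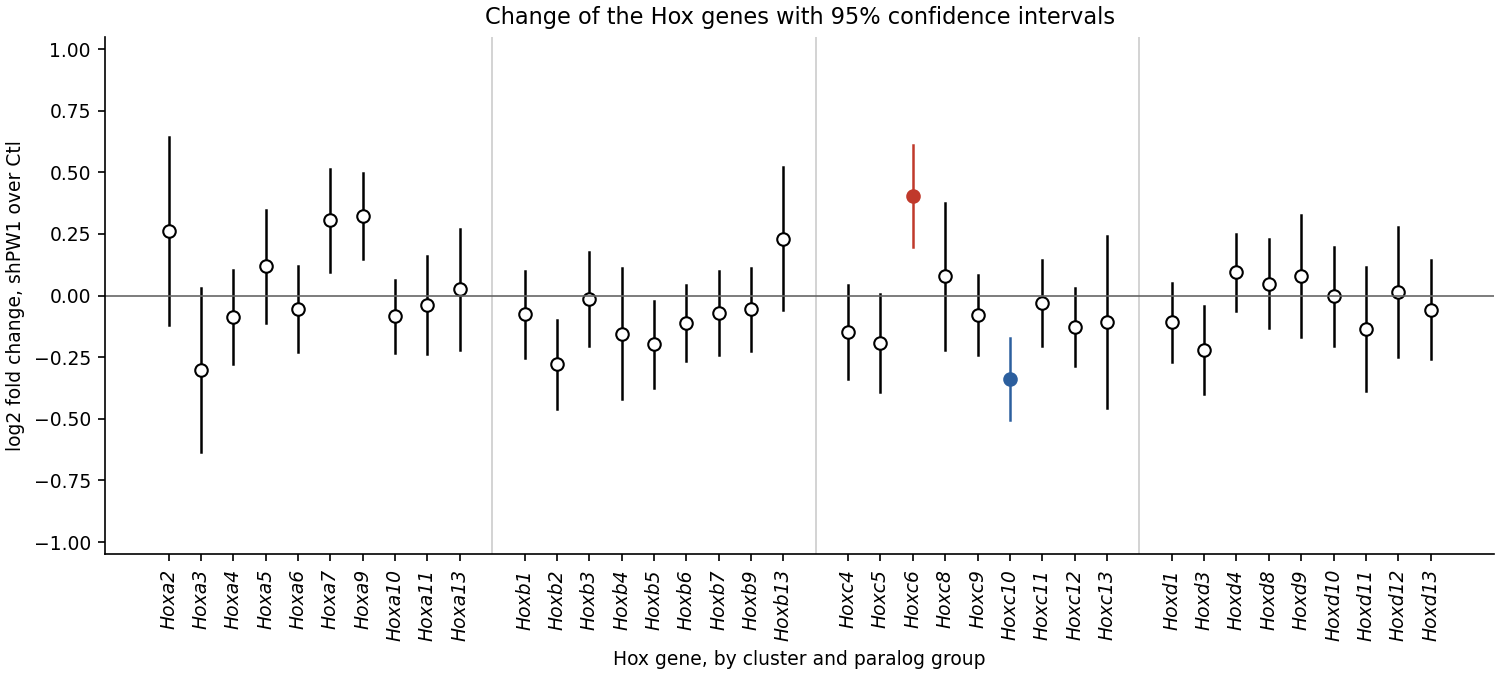
Log2 fold change of each Hox gene, shPW1 over Ctl (vertical axis), by cluster and paralog group (horizontal axis), with 95% confidence intervals from limma as bars. The red filled point is the gene called higher (Hoxc6, 0.40), the blue filled point the gene called lower (Hoxc10, -0.34), and open points are the 35 genes not called.

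The direction of the family as a whole was slight and moved with the scaling of the arrays. The median log2 fold change of the 37 genes was -0.06, against -0.0095 over all probe sets tested, with 12 positive and 25 negative values (10378 positive and 11408 negative over all). A second quantile normalization gave a median of -0.03 and 23 negative values, and subtraction of array medians gave 0.0011 and 18. In all, 7 genes changed sign under 1 or both scalings (Hoxa6, Hoxa11, Hoxb3, Hoxb9, Hoxc11, Hoxd10 and Hoxd13). The arrays of the groups did not overlap for 6 genes with shPW1 higher (16.2%, against 27.5% of all probe sets) and for 15 with shPW1 lower (40.5%, against 28%). After the second quantile normalization these shares were 18.9% (all: 28.2%) and 27% (all: 27.6%). After subtraction of array medians they were 21.6% (all: 37.1%) and 21.6% (all: 18.7%).

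Hoxa members were split, with 5 positive and 5 negative values. Their median was -0.0072, which turned positive under both scalings (0.03 and 0.05). Hoxb had 8 of 9 values below 0 and a median of -0.08, which stayed negative under both (-0.03 and -0.02), and Hoxb13 was the exception. Hoxc had 7 of 9 below 0 and a median of -0.11 (-0.08 and -0.05 under the scalings), Hoxc6 and Hoxc8 being above 0. Hoxd had 5 of 9 below 0 and a median of -0.0028, again positive under both scalings (0.04 and 0.06). In limma 0 genes of Hoxa, Hoxb and Hoxd were called, while 2 higher in Hoxa, 2 lower in Hoxb and 1 lower in Hoxd (Hoxd3) had an unadjusted p under 0.05. Over all 21789 probe sets 3079 were higher and 2953 lower at that level (27.7% in all), and of the 37 Hox genes 3 were higher and 4 lower (18.9%). The methods' analysis of variance called 1 higher in Hoxa, 1 lower in Hoxb and 0 in Hoxd, against 6.35% higher and 5.35% lower of all probe sets. Both calls thus fell in Hoxc, in opposite directions, 4 paralog groups apart.

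By paralog class, the anterior genes had 9 of 11 values below 0 and a median of -0.11 (-0.07 and -0.05 under the scalings). Group 1, the hindbrain genes, held Hoxb1 at -0.08 and Hoxd1 at -0.11. Group 2 held Hoxa2 and Hoxb2 with opposite signs, and the confidence interval of Hoxa2 included 0. In group 3, Hoxb3 was at -0.01 and Hoxd3 at -0.22, with 4.61 and 4.56 in shPW1 and 4.75 and 4.86 in Ctl. Group 4, which marks the neck, held Hoxa4 at -0.09, Hoxb4 at -0.15, Hoxc4 at -0.15 and Hoxd4 at 0.09. No anterior gene was called, and 0 had an unadjusted p under 0.05 with a higher value in shPW1 and 2 with a lower one (Hoxb2 and Hoxd3). The 95% confidence intervals of all other anterior genes included 0, so the directions of those genes are not settled.

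The central genes, which pattern the rib-bearing trunk, had 5 of 10 values below 0 and a median of -0.0032, which was 0.02 and 0.06 under the scalings. In group 5 Hoxa5, which is needed for lung and neck skeleton, was at 0.12, Hoxb5 at -0.20 and Hoxc5 at -0.19. In group 6 Hoxa6 and Hoxb6 were at -0.06 and -0.11 beside Hoxc6. Hoxb7 was at -0.07 beside Hoxa7. In group 8 Hoxc8 was at 0.08 and Hoxd8 at 0.05. The signs of the paralogs were thus mixed in groups 5, 6 and 7. The 95% confidence intervals of Hoxa5, Hoxc5, Hoxa6, Hoxb6, Hoxb7, Hoxc8 and Hoxd8 included 0, so their directions are not settled.

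The posterior genes had 11 of 16 values below 0 and a median of -0.05, which was -0.02 and 0.01 under the scalings. Beside Hoxa9, group 9 held Hoxb9 at -0.06, Hoxc9 at -0.08 and Hoxd9 at 0.08. In group 10, which shapes the lumbar vertebrae and the thigh, Hoxa10 had 7.30 and 7.29 in shPW1, against 7.39 and 7.36 in Ctl. This was a log2 fold change of -0.08, of the same sign as Hoxc10 but smaller, and Hoxd10 was at -0.0028. Group 11, which shapes the middle segment of the limb, held Hoxa11 at -0.04, Hoxc11 at -0.03 and Hoxd11 at -0.14. Hoxa11 had 7.52 and 7.56 in shPW1, against 7.66 and 7.50 in Ctl, and the groups overlapped. In group 12 Hoxc12 was at -0.13 and Hoxd12 at 0.01. In group 13, the genes of the digits and the tail, Hoxa13 was at 0.02, Hoxc13 at -0.11 and Hoxd13 at -0.06. None of the genes named in this paragraph with a value was called except Hoxc10. The 95% confidence intervals of all posterior genes but Hoxa9 and Hoxc10 included 0, so the directions of the others are not settled.

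**Figure D3:**
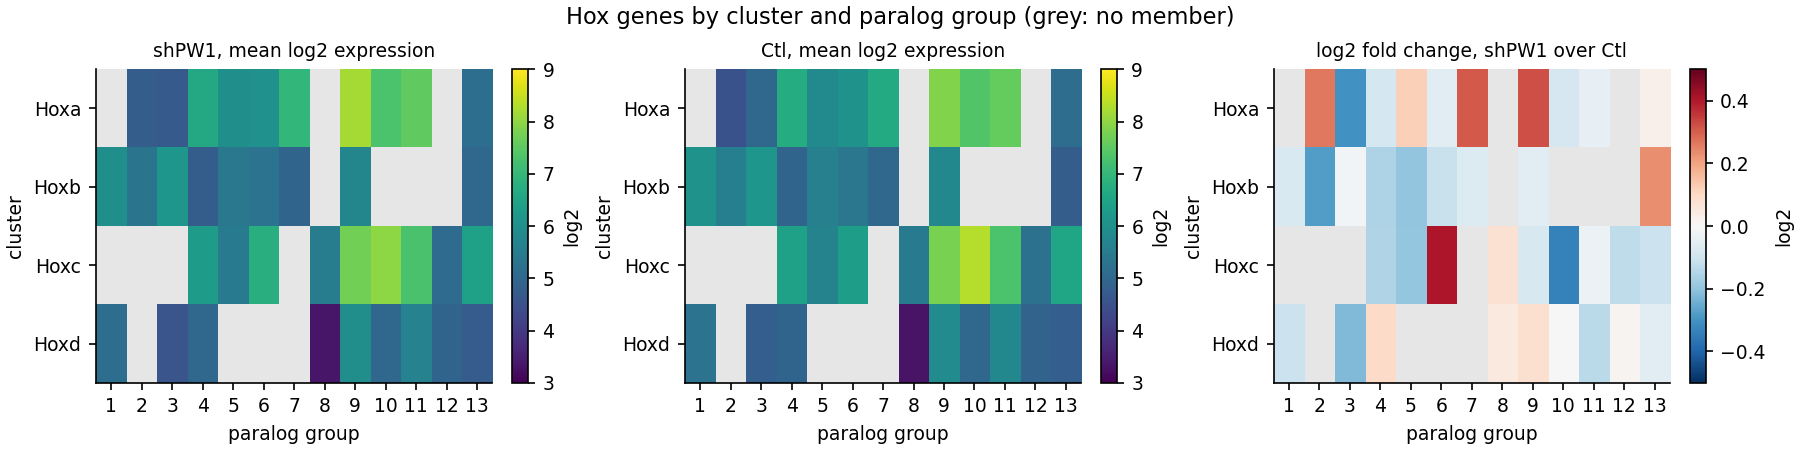
Mean log2 expression in shPW1 (left) and Ctl (middle) and log2 fold change of shPW1 over Ctl (right), with clusters down the page and paralog groups 1 to 13 across, and grey where there is no member. The 2 level maps look alike, and the change map runs from -0.34 (Hoxc10) to 0.40 (Hoxc6).

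The spread of the Hox genes between arrays was small. The median within-group SD was 0.07 on the log2 scale and the median SE of a difference was 0.07, the latter close to that of all probe sets tested. Over the 37 genes the difference between replicate arrays had an SD of 0.15 in shPW1 and 0.12 in Ctl. Over all probe sets tested this SD was also larger, at 0.17 in shPW1 and 0.15 in Ctl. Between a shPW1 and a Ctl array the SD over the 37 genes was 0.18 to 0.22, against 0.27 to 0.29 over all probe sets tested.

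**Figure D4:**
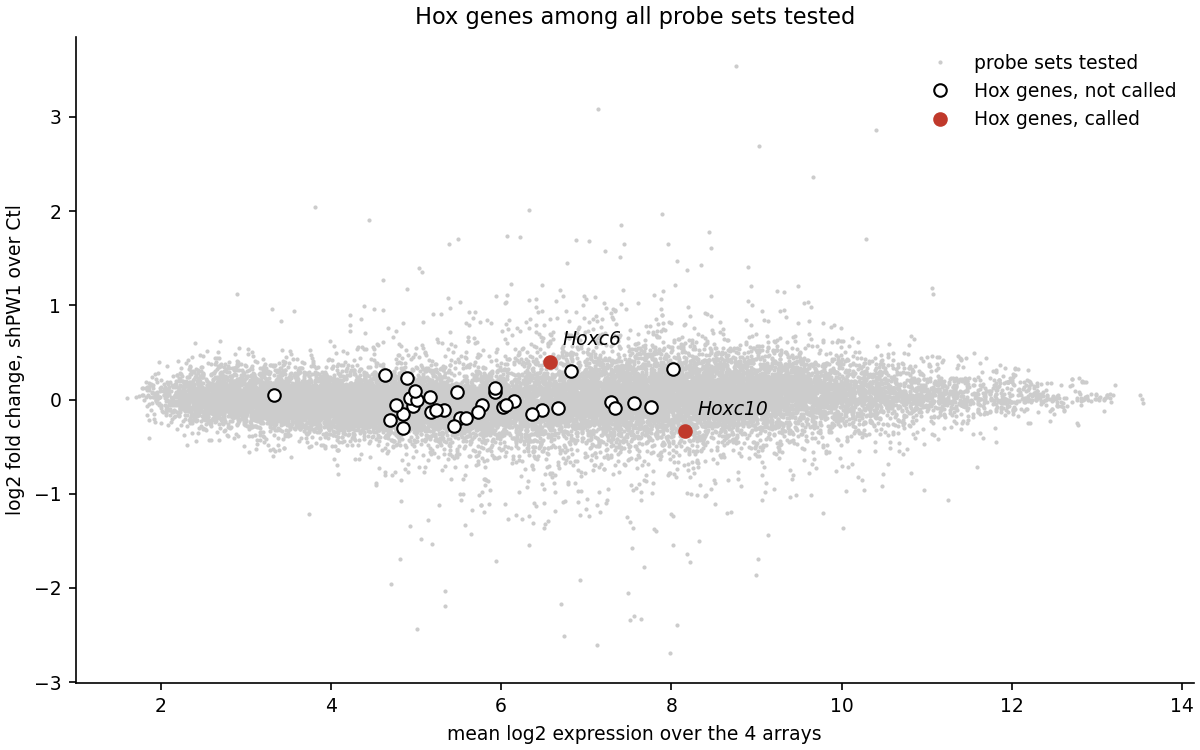
Log2 fold change (shPW1 over Ctl, vertical axis) against mean log2 expression of the 4 arrays (horizontal axis), for all 21789 probe sets tested (grey) and the 37 Hox genes (open circles, or red where called). The Hox genes stay between -0.34 and 0.40, while the far more numerous probe sets tested run from -2.69 to 3.54. The median absolute log2 fold change is 0.107 for the Hox genes and 0.118 for all probe sets tested.

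PW1 is a DNA-binding factor for which the study names a motif, so the start sites of Hox genes were searched for its letters, AGTNNCNNNTGGCT, and for its last part alone, TGGCT. Both strands of windows of 300 bases (250 before and 50 after the start, from RefSeq on GRCm38.p6) were read, and the short motif lies within the long one. Windows were at hand for 21 of the 37 members (23 windows). Hoxc6 and Hoxc10, the called genes, had no window, so the motif was not searched at either. The long motif was in 0 of the 23 Hox windows and in 0.484% of all 32851 windows. The short one was in 18 of the 23 (78.3%), against 63.4% of all. The windows of Hoxa7 and Hoxa9 are shown because these neighbours had the largest positive log2 fold changes after Hoxc6, and neither holds the short motif on either strand. No match says only that these letters are not in this window.
Hoxa7, chr6:52218524-52218823, minus strand: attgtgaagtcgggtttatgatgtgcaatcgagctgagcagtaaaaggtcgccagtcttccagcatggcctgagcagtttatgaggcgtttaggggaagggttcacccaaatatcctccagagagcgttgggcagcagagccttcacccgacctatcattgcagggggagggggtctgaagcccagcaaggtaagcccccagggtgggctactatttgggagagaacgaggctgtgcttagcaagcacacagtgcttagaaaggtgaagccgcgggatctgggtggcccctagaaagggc
Hoxa9, chr6:52227321-52227620, minus strand: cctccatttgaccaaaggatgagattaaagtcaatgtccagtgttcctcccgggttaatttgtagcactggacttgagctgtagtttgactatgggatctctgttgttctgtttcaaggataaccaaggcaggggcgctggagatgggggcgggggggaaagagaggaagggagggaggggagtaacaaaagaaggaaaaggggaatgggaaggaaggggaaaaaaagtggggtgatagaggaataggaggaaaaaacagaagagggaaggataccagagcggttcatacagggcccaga
The Hoxa7 window had a GC content of 55.7% and the Hoxa9 window of 49.7%.

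The Hox clusters also carry microRNA genes and antisense transcripts, and 5 of the miRNA genes are shown because they fall in a pair of families by their seeds. miR-10a and miR-10b share 1 seed and lie next to group 4 genes, and miR-196a and miR-196b share another and lie next to group 9 genes. Capitals mark the seed, bases 2 to 8 (RefSeq, GRCm38.p6).
miR-10a-5p, chr11:96317186-96317208, plus strand: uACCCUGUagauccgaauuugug
miR-10b-5p, chr2:74726074-74726096, plus strand: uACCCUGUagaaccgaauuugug
miR-196a-5p, from Mir196a-1 at chr11:96265187-96265208 and Mir196a-2 at chr15:102973365-102973386, plus strand: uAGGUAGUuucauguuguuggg
miR-196b-5p, chr6:52230129-52230150, minus strand: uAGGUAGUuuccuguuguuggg
Mir196a-1, in the Hoxb cluster, had 2.75 and 2.95 in shPW1, against 2.50 and 2.50 in Ctl, with a log2 fold change of 0.35 (limma adjusted p = 0.0771). Its second copy in the Hoxc cluster, Mir196a-2, had 3.77 and 4.06 in shPW1, against 4.02 and 3.95 in Ctl. Mir196b in the Hoxa cluster had 4.47 and 4.38 in shPW1, against 4.28 and 4.46 in Ctl. Mir10a and Mir10b had log2 fold changes of 0.12 and 0.06. These 5 probe sets were below the 95th percentile of receptor probe sets, and an array of this kind does not tell a mature miRNA from its precursor.

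Mir615, a miRNA gene of the Hoxc cluster outside both families, had 7.61 and 7.51 in shPW1, against 7.48 and 7.65 in Ctl, above the 99th percentile, and the groups overlapped (log2 fold change -0.01). Of 10 noncoding genes of the Hox clusters in all, limma called 0, and 1 had an unadjusted p under 0.05 with a higher value in shPW1 (Mir196a-1). The methods' analysis of variance called 0. After subtraction of array medians limma called 1 higher. Haglr, a long noncoding RNA of the Hoxd cluster, had 4.0 and 3.92 in shPW1, against 4.37 and 4.11 in Ctl. Hottip, at the posterior end of Hoxa, had 4.54 and 4.30 in shPW1, against 4.40 and 4.61 in Ctl. Haglr and Hottip were below the 95th percentile of receptor probe sets in shPW1 and in Ctl.

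Around the Hox genes, larger changes were measured in genes that act with them or upstream of them. The lists were written from general knowledge, and their counts are read against the 4.93% higher and 4.17% lower of all probe sets. All 10 TALE and all 23 Polycomb and trithorax genes lay above the 99th percentile in Ctl, against 55.1% of all probe sets. With dim probe sets left out, limma called 31.7% of those it tested. A share called above 9.1% is therefore not read as particular to these lists. Of 10 TALE homeobox cofactors, the partners with which Hox proteins bind DNA, 1 was called higher and 2 lower (30%, against 9.1% of all probe sets in either direction, median -0.08). Pknox2 had 5.38 and 5.42 in shPW1, against 6.21 and 6.3 in Ctl (log2 fold change -0.85, limma adjusted p = 0.0087). Meis2 had 7.99 and 8.08 in shPW1, against 8.57 and 8.60 in Ctl (-0.55, limma adjusted p = 0.0189). Tgif1, a repressor of the same class, had 9.88 and 9.93 in shPW1, against 9.55 and 9.53 in Ctl (0.36, limma adjusted p = 0.0333). Pbx2, Pbx3, Pbx4 and Meis1 were not called, with log2 fold changes of 0.26, 0.22, -0.04 and 0.11. The changes of Pknox2 and Meis2 were larger in size than that of any Hox gene.

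Of 21 upstream inducers, the Cdx, retinoid and Gdf11 genes that set Hox expression in the embryo, 1 was called higher and 3 lower (19%, median -0.08). The 4 called genes handle vitamin A and retinoic acid. Stra6, the retinol transporter, had 5.80 and 6.0 in shPW1, against 7.12 and 7.26 in Ctl (log2 fold change -1.29, limma adjusted p = 0.0086). Rdh10, which oxidises retinol to retinal, had 10.15 and 10.12 in shPW1, against 9.15 and 9.15 in Ctl (0.98, limma adjusted p = 0.0061). Aldh1a3, which makes retinoic acid from retinal, fell by 0.59 (limma adjusted p = 0.0187), and Crabp2, which carries retinoic acid to its receptor, fell by 0.45 (limma adjusted p = 0.0312). Cdx1, Cdx2, Cdx4 and Gdf11 were not called, with log2 fold changes of -0.04, -0.19, -0.18 and -0.05. Rara and Rarg, receptors for retinoic acid, were at -0.15 and -0.22 and were not called. Whether these differences bear on the Hox values was not tested.

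Of 23 Polycomb and trithorax regulators, which hold Hox chromatin shut or open, 3 were called higher and 1 lower (17.4%, median -0.0038, and 0.05 after subtraction of array medians). Kdm6b, which removes the Polycomb methyl mark, rose by 0.44 on the log2 scale (limma adjusted p = 0.023). Dot1l, a histone H3 methyltransferase, rose by 0.36 (limma adjusted p = 0.0456), and Suz12, a subunit of Polycomb repressive complex 2, by 0.31 (limma adjusted p = 0.0426). Phc1, a subunit of Polycomb repressive complex 1, fell by 0.38 (limma adjusted p = 0.0337). Ezh2 and Eed, the other core subunits of the complex with Suz12, were at -0.05 and 0.02 and were not called. Suz12 was no longer called after a second quantile normalization, nor Phc1 after subtraction of array medians.

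**Figure D5:**
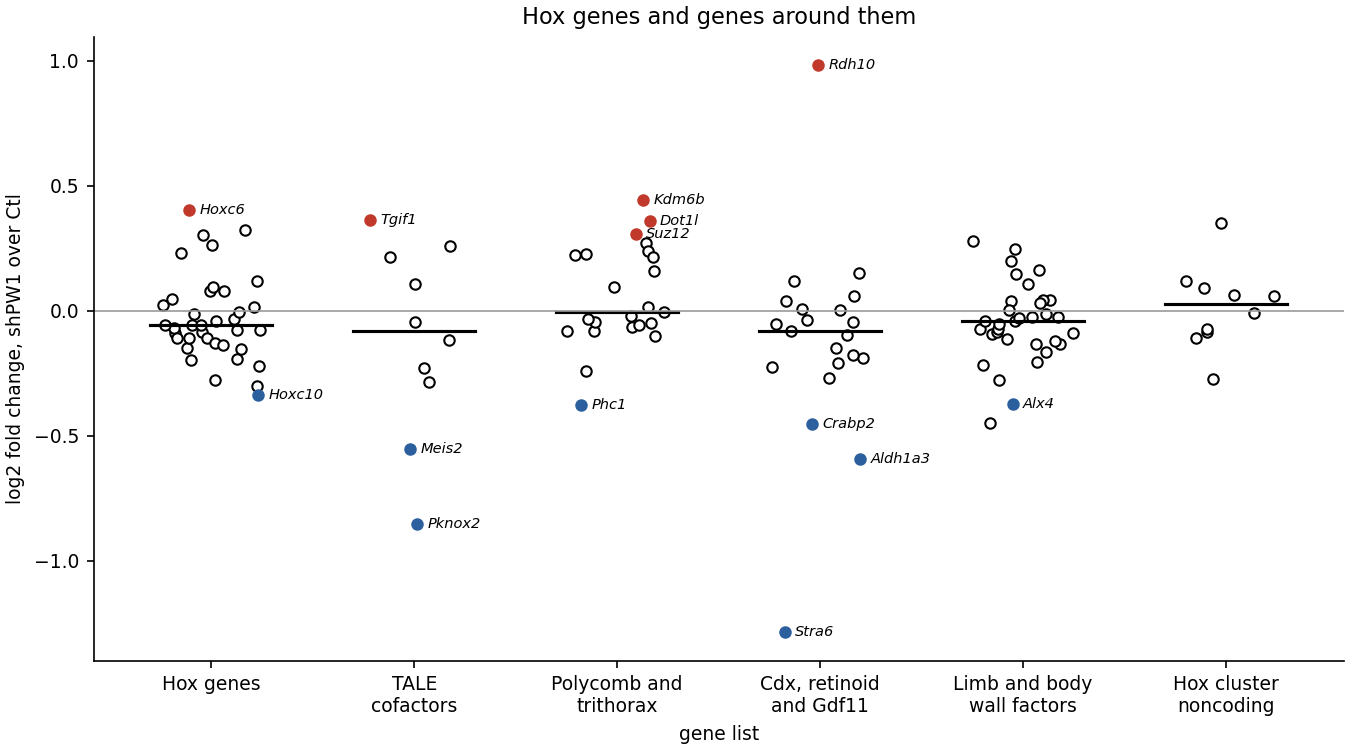
Log2 fold change (shPW1 over Ctl, vertical axis) of the Hox genes and 5 lists of genes around them (horizontal axis). Each point is a gene, filled red where called higher, filled blue where called lower and open where not called, and horizontal bars are list medians. Stra6 (-1.29) and Rdh10 (0.98) lie outside the range of the Hox genes.

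Limb and body wall factors give a second readout of position. Of 33 measured, limma called 0 higher, with 3 at an unadjusted p under 0.05 and 1 called by the methods' analysis of variance, and 1 lower (median -0.04, and 0.02 after subtraction of array medians). Its share called, 3.03%, was below the 9.1% of all probe sets. The called gene was Alx4, a factor of the anterior limb bud, with 5.14 and 5.10 in shPW1, against 5.48 and 5.50 in Ctl (log2 fold change -0.37, limma adjusted p = 0.0313). In both groups Alx4 lay above the 95th percentile of receptor probe sets and below the 99th. Irx3 had the largest change of the list in size and was not called (log2 fold change -0.45, limma adjusted p = 0.101). Pitx1, the hindlimb selector, had 6.15 and 6.13 in shPW1, against 6.13 and 6.23 in Ctl, above the 99th percentile of receptor probe sets. Tbx4, the hindlimb T-box factor, had 4.84 and 4.92 in shPW1 and 4.76 and 4.79 in Ctl, a mean of 4.88 in shPW1, just above the 95th percentile there, and of 4.77 in Ctl, below it. Tbx5, the forelimb T-box factor, had 4.33 and 4.03 in shPW1 and 4.22 and 4.16 in Ctl, below the 95th percentile in both groups. Tbx4, Tbx5 and Pitx1 were not called, with log2 fold changes of 0.11, -0.01 and -0.04, and the signs of the last pair turned under both scalings.

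Markers of the cell types that a muscle-derived culture can hold also moved, and their part in the Hox values was not tested. Of 12 satellite cell and myoblast markers, 2 were called higher and 5 lower (58.3%, median log2 fold change -0.08), led by Myod1 (7.46 and 7.27 in shPW1, 9.08 and 9.09 in Ctl). The summed log2 level was 12.71 and 12.71 in shPW1 and 12.79 and 12.79 in Ctl. The brightest gene in this sum was Sdc4, called higher (mean 11.22 in shPW1 and 10.84 in Ctl). Of 12 pericyte markers, 1 was called higher and 6 lower (58.3%, median -0.22), with Notch3 at -1.10 and Anpep at -1.06. Their summed level was 13.85 and 13.81 in shPW1 and 13.80 and 13.82 in Ctl, of which Acta2 made up 69.7% and 69.2% in shPW1 and 62.8% and 63.2% in Ctl. Without Acta2 it was 12.12 and 12.11 in shPW1 and 12.37 and 12.38 in Ctl. Of 10 fibroblast markers, 3 were called lower (30%, median -0.25), among them Pdgfra. The summed level of the 10 was 13.27 and 13.20 in shPW1 and 13.50 and 13.48 in Ctl. The brightest gene in this sum was Col1a1, not called (mean 12.65 in shPW1 and 12.90 in Ctl). Of 7 Schwann and neural markers and 8 adipocyte, cartilage and bone markers, 1 each was called lower (Tubb3 and Pparg, 14.3% and 12.5%), and their summed levels were 8.34 and 8.36 in shPW1 against 8.52 and 8.55 in Ctl, and 9.78 and 9.59 in shPW1 against 9.94 and 9.94 in Ctl. In limma 0 of 10 endothelial and 0 of 9 leukocyte markers were called, and 0 and 1 of them had an unadjusted p under 0.05. Their median log2 fold changes were -0.08 and -0.13. The defining markers Pecam1 (4.58 and 4.76 in shPW1, 4.78 and 4.78 in Ctl) and Ptprc (4.23 and 3.66 in shPW1, 3.62 and 3.73 in Ctl) were below the 95th percentile of receptor probe sets. In Ctl, however, 5 of the 10 endothelial and 3 of the 9 leukocyte markers lay above it. Among them, Cldn5 (Ctl mean 5.77) and Cd68 (Ctl mean 6.02) were also above the 99th percentile. The summed level was 8.34 and 8.24 in shPW1 against 8.33 and 8.34 in Ctl for endothelial markers, and 7.96 and 7.87 in shPW1 against 7.98 and 8.05 in Ctl for leukocyte markers.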

How the data were processed

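The authors normalized 4 Affymetrix Mouse Gene ST arrays by RMA in Partek (version 6.4 in the submitters' processing notes; the methods give another) and deposited log2 expression values, which were used unchanged. Their background correction and probe summarization were kept, and the scanner files were not analysed here. The table had 35556 rows, of which 1621 carried several gene symbols and 12146 none. The remaining 21789 were tested. Symbols of 21698 probe sets matched the RefSeq gene table. The test was limma (version 3.58.1, lmFit then eBayes, under R 4.3.3), with 2 residual and 2.72 prior degrees of freedom, two-sided, with Benjamini-Hochberg adjustment over all probe sets tested. The number of arrays limits the precision. A gene with several probe sets was read by its brightest.

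The members and the 12 gene lists were chosen with earlier results of these data known. Hox genes called, then those with the largest absolute change up to 8, were given in full, the others by value within their paralog group. Up to 4 called genes per list, Tbx4, Tbx5, Pitx1 and Peg3 were also taken by rule. Other genes were named after their values were seen. Summed levels are log2 of the sum of the linear values of a list. The test was checked on simulated arrays. Alternatives were a limit on dim probe sets (log2 5.44), all rows, both scalings, a trended robust prior, the methods' analysis of variance, probe sets of a gene averaged, rows with several symbols added, other background levels, a block for the replicate number, and the omission of each array in turn.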

Additional observations from a re-analysis of the deposited data

How the results depend on the processing

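With 2 arrays per group the counts of calls moved more than the values did. Over all probe sets tested, 1075 were called higher in shPW1 and 908 lower. These counts were 2240 and 1784 with dim probe sets left out (12689 tested, 22 of them Hox), 36 and 50 over all rows, 1627 and 759 after subtraction of array medians (68.2% of calls higher, against 54.2%), 2735 and 1978 with a trended robust prior, and 1 and 1 by the methods' analysis of variance after Benjamini-Hochberg. They ranged from 0 to 0 in each direction when each array was left out in turn, with 1899 to 2706 higher and 1891 to 2673 lower at an unadjusted p under 0.05 in limma, where the lone array of a group is assumed to vary like the other group. For the Hox genes, 1 higher and 1 lower became 3 (Hoxa7, Hoxa9, Hoxc6) and 2 (Hoxb2, Hoxc10) with dim probe sets left out, 0 and 0 over all rows, 3 and 0 after subtraction of array medians, 3 and 1 with the trended prior, 2 and 2 (Hoxa9, Hoxc6, Hoxb2, Hoxc10) by the methods' analysis of variance without adjustment, 0 and 0 after its adjustment, and 0 to 0 with each array left out. At an unadjusted p under 0.05, limma over all rows had 3 Hox genes higher and 3 lower, and the analysis of variance 2 and 3. The second quantile normalization, the averaging of probe sets and the added row left the Hox calls at Hoxc6 and Hoxc10.

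Hoxc6 kept a positive log2 fold change under all 15 alternatives (0.34 to 0.47) and Hoxc10 a negative one (-0.38 to -0.28). Peg3 was at -2.34 with an adjusted p of 0.105 by the analysis of variance after Benjamini-Hochberg, and ran from -2.47 to -2.21 with each array left out in limma (adjusted p 0.0795 to 0.112). The sign of Tbx5 turned to 0.0091 after quantile normalization and 0.0475 after subtraction of array medians, and its value ran from -0.16 to 0.139 with each array left out (positive without Ctl replicate 1, at 0.0196, or shPW1 replicate 2). That of Pitx1 turned to 0.0031 and 0.0185 under the same scalings, and ran from -0.0885 to 0.0091 (positive without Ctl replicate 2). Of the other Hox genes given in full and the called genes named from lists, none changed sign under any alternative. The other Hox genes were followed under the scalings only, and 7 of them changed sign there (Hoxa6, Hoxa11, Hoxb3, Hoxb9, Hoxc11, Hoxd10 and Hoxd13). The cause of these moves was not tested.

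Same-numbered arrays did not deviate together (correlation -0.105 over probe sets), and the labels give only a shared number. With the replicate number as a block limma called 256 higher and 258 lower, and with a crossed block, added after the data were seen, 213 and 224. Of the Hox genes, the block and the crossed block each called 0 higher and 0 lower, with 3 and 2 at an unadjusted p under 0.05 under the block and 3 and 6 under the crossed block. Against the 31 Hox genes in shPW1 and 32 in Ctl above the 95th percentile of receptor probe sets, 18 and 18 were above the 99th and 20 and 21 above the median of all rows.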

Other observations

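The row that named both Hoxb8 and Hoxb7 had 4.84 and 4.46 in shPW1 and 4.70 and 4.67 in Ctl, a difference of -0.03. Hoxa6 had the same value to every deposited decimal, 6.09, in shPW1 replicate 2 and in both Ctl arrays, and 5.98 in shPW1 replicate 1. It was the only Hox gene with equal values on 2 or more arrays. Over all probe sets tested, 366 had equal values on 2 arrays, 28 on 3 and 3 on 4. The SE of the Hoxa6 difference therefore rests on the shPW1 pair and on the prior spread. Hoxd12 and Hoxd13 shared the value 4.81 in shPW1 replicate 2.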
